A study of Mus musculus with 4 samples.

Results

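Voltage-gated sodium and calcium channel genes were followed from progenitors to neurons in the mouse medial cortex at E16.5. The set was defined by name alone and held every gene of the deposited table whose symbol marked it as a sodium channel alpha or beta subunit (*Scn*), a calcium channel alpha-1 subunit (*Cacna1*), a calcium channel beta subunit (*Cacnb*) or an alpha-2-delta subunit (*Cacna2d*). It comprised 32 of the 56884 genes: 10 sodium alpha, 4 sodium beta, 10 calcium alpha-1, 4 calcium beta and 4 alpha-2-delta genes. Expression was measured by single-nucleus RNA sequencing with split-pool barcoding, in 2 libraries from control embryos (Sst-Cre/tdTomato) and 2 from *Dnmt1* KO embryos (Sst-Cre/tdTomato/Dnmt1 loxP2), all on a C57BL/6J background. Both genotypes carried the Cre recombinase, driven from the somatostatin gene *Sst*, and the tdTomato reporter, and they differed by the loxP-flanked allele of the DNA methyltransferase gene *Dnmt1*. Cre is therefore active in somatostatin-lineage cells, whereas most nuclei of this unsorted tissue belong to cells outside that lineage. Control library 2 was labelled as batch 2 and held 2 sublibraries, whereas the other 3 libraries were batch 1 with 8 sublibraries each.

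The pore of a voltage-gated sodium or calcium channel is formed by a single large alpha (alpha-1) subunit that opens on depolarisation. Sodium channels carry the rising phase of the action potential, and their alpha genes are used in turn during brain development, with *Scn3a* known as the fetal brain form and *Scn1a*, *Scn2a* and *Scn8a* as the principal forms of mature neurons. Calcium channels couple depolarisation to transmitter release, gene expression and migration. Their alpha-1 genes encode the L-type (*Cacna1c*, *Cacna1d*, *Cacna1f*, *Cacna1s*), P/Q-, N- and R-type (*Cacna1a*, *Cacna1b*, *Cacna1e*) and low-threshold T-type channels (*Cacna1g*, *Cacna1h*, *Cacna1i*), and the beta and alpha-2-delta subunits help bring the pores other than the T-type to the membrane.

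Of all barcodes, 29656 held 1500 to 60000 transcripts and were retained as nuclei: 5640 and 12064 in *Dnmt1* KO libraries 1 and 2, and 7047 and 4905 in control libraries 1 and 2. No barcode was shared between libraries. The median depth was 12274 to 12401 transcripts per nucleus in the batch 1 libraries and 21140 in control 2. Nuclei were assigned to classes from marker genes that include no channel gene, and 29.0% of them fell in no class (20.6% in control 2 and 30.0% to 30.9% in the others). The 6 classes compared were radial-glia-like nuclei (408 to 937 per library), intermediate-progenitor-like nuclei (296 to 418), newborn-excitatory-neuron-like nuclei (589 to 1049), upper-layer-like neurons (254 to 1255), deep-layer-like neurons (956 to 1785) and interneuron-like nuclei of the medial ganglionic eminence, here MGE-like (264 to 1055). Levels are CPM, the transcripts of a gene scaled to the total of the class and library, not corrected for gene length, and are listed in the order *Dnmt1* KO 1, *Dnmt1* KO 2, control 1, control 2. Transcripts of *Dnmt1* itself were at 61.8, 47.5, 59.6 and 56.0 CPM over all nuclei and at 57.6, 50.0, 68.9 and 52.2 CPM in MGE-like nuclei. In nuclei with at least 1 transcript of both *Sst* and *Gad2*, the latter an enzyme of GABA synthesis, they were at 76.1, 46.1, 81.2 and 66.5 CPM. The genotypes overlapped in all 3 populations, and reads from outside the floxed part of the gene count here, so this level does not check the deletion.

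The study concerns a DNA methyltransferase, whose substrate is the CG dinucleotide, and the sequences just upstream of the channel genes are shown for this reason. In the 250 bases before the start of the canonical transcript (GRCm39, GENCODE vM39), the 32 members held a median of 7.5 CG dinucleotides, beside 8 over the 21770 protein-coding genes with such a window. The members spread widely, from 1 in *Scn2b* and *Cacna2d4* to 56 in *Scn8a*, and 13 of 32 exceeded 10, as did 40.2% of all genes. The windows of 17 members overlapped no annotated exon. Among these, the windows below belong to members with large differences in the class comparisons that follow, *Scn3a* (chr2:65397972-65398221, minus strand) and *Cacna1b* (chr2:24653222-24653471, minus strand) for neurons over progenitors, *Cacna1e* (chr1:154602519-154602768, minus strand, within an intron of longer transcripts of the gene) for deep-layer-like neurons and *Cacna2d2* (chr9:107276561-107276810, plus strand) for MGE-like nuclei. They are written 5′ to 3′ on the strand of the gene, and capitals mark CG dinucleotides.
Scn3a: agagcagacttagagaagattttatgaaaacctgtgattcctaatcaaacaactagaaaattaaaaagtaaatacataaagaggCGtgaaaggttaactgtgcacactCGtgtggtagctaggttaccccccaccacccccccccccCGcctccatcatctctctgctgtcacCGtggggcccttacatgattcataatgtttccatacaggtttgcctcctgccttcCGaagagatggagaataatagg
Cacna1b: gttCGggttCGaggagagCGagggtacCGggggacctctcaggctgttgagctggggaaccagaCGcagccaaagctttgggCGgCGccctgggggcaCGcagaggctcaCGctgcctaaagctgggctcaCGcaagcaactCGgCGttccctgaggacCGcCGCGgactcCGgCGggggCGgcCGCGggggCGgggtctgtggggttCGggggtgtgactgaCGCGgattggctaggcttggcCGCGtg
Cacna1e: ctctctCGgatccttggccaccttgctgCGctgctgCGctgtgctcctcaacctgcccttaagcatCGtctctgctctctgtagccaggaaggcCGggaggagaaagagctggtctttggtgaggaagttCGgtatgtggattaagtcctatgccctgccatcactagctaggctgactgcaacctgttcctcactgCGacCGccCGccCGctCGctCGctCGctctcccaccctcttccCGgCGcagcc
Cacna2d2: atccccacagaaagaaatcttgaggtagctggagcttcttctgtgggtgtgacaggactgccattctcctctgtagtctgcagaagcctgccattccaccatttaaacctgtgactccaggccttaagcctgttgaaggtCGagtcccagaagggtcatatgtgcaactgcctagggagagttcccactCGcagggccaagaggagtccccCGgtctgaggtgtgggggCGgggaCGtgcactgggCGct
The window of *Scn3a* held 5 CG dinucleotides, that of *Cacna1b* 26, that of *Cacna1e* 15 and that of *Cacna2d2* 6. Over all genes the quartiles were 3 and 16, and of the windows shown only that of *Cacna1b* lay outside them. Of the members shown for neurons over progenitors, *Scn3a* was thus below and *Cacna1b* above the median of 8 over all genes. Methylation was not measured in these libraries.

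The first comparison asked how the channel genes differ between progenitors and excitatory neurons. Their level was much higher in neurons: of the 25 members with enough counts to be tested, 22 were higher in upper- and deep-layer-like neurons (averaged) than in radial-glia-like nuclei and 3 were lower, at an adjusted p under 0.05 and a 2-fold difference (edgeR quasi-likelihood test on counts summed per library and class, library as a block, 24 sums). Over all 15330 genes tested, 19.2% were higher and 19.3% were lower by the same rule. The median difference was 2.73 (log2) over the members and 0.00 over all genes. These differences are relative to the scaling factors of the fit (TMM), which assume that most genes do not differ. Scaling by library size alone moved the median of all genes by -0.53, to 30.0% higher among all calls in place of 50.0%, and 19 members were then called higher and 3 lower. A second feature moves with the calls, since, of 5 equal bins of genomic span, 17 of the 25 members lie in the longest, in which 30.4% of genes were higher, beside 16.9% in the shortest. The part of gene length in the result was not tested.

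**Figure D1:**
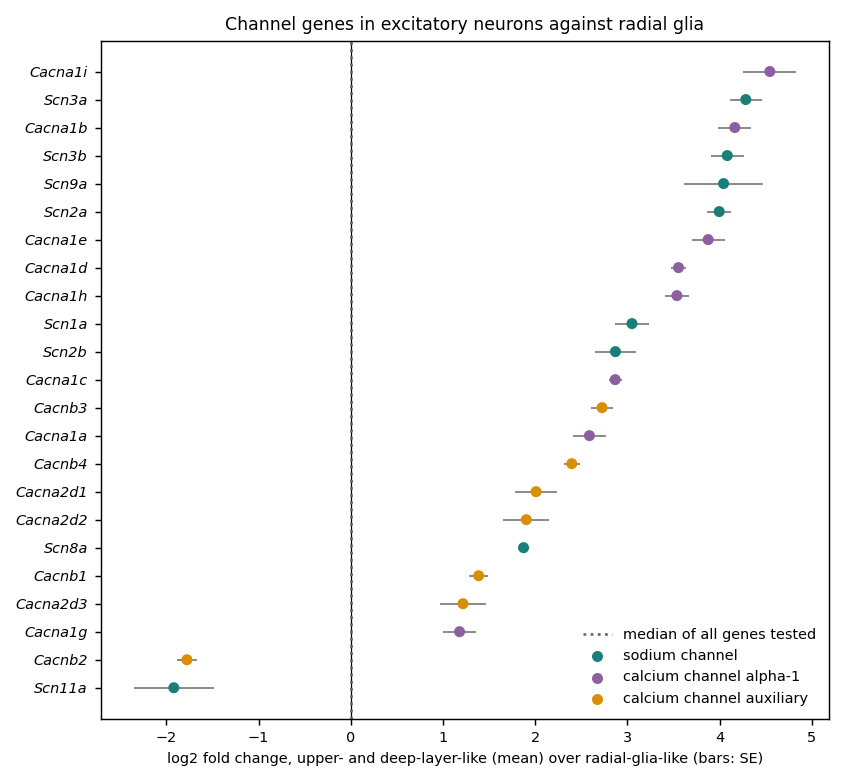
Log2 fold change (x axis, TMM-scaled) of 23 of the 25 tested channel genes in upper- and deep-layer-like neurons over radial-glia-like nuclei, with bars for the standard error and colours for the family. Of those plotted, 21 lie to the right of 0 and 2 (*Cacnb2* and *Scn11a*) to the left, and the dotted line marks the median of all genes tested, 0.00.

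Low levels in progenitors were set beside those of endothelial- and microglia-like nuclei, which were not shown to lack the genes. There were 35, 232, 80 and 46 endothelial-like and 7, 52, 15 and 7 microglia-like nuclei, with putative doublets kept. In the pooled endothelial- and microglia-like nuclei, 20 of the 32 members were at or above their mean level in radial-glia-like nuclei, and 20 were at or above that in intermediate-progenitor-like nuclei. The count was 9 of 32 in newborn, 7 in upper-layer-like and 5 in deep-layer-like neurons and 8 in MGE-like nuclei. *Scn2a* and *Scn3a*, at 41.3 and 47.4 CPM in this comparator, were thus below it in radial-glia-like nuclei (20.3 and 18.8 CPM). Levels under the comparator are not shown to exceed background, but these lower values also mean that the comparator is not a floor. Of the 6 members called higher in intermediate progenitors than in radial glia, *Scn1a*, *Scn3a* and *Cacna1d* had means at or under the comparator in both classes. The comparator itself varied between libraries, with *Scn3a* at 14.01, 69.7, 34.0 and 72.1 CPM and all sodium alpha genes summing to 104.1, 216.7, 201.4 and 333.8 CPM. In intermediate progenitors that sum was 216, 264.6, 242.3 and 253.8 CPM, above the comparator of the same library in 3 of 4, whereas *Scn1a* and *Scn3a* were above it in 2 of 4 and *Cacna1d* in 1 of 4. For *Cacna1e* the comparator was uneven, because it was at 622 to 1053 CPM in endothelial-like and only 34.5 to 132 CPM in microglia-like nuclei.

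Among the sodium channel alpha genes, *Scn3a* had the largest difference from radial glia to neurons. It was at 8.80, 21.4, 21.7 and 23.5 CPM in radial-glia-like nuclei, rose through 36.2, 57.8, 43.1 and 44.7 CPM in intermediate-progenitor-like nuclei to 198, 258, 258 and 196 CPM in newborn neurons, and stood at 211, 314, 273 and 270 CPM in upper-layer-like and 225, 261, 232 and 230 CPM in deep-layer-like neurons. No neuronal value overlapped a progenitor value. The difference was 4.29 ± 0.18 (log2, SE; adjusted p = 9.2e-15, edgeR) between excitatory neurons and radial glia, and both early steps were called, with 1.32 from radial glia to intermediate progenitors, whose mean of 45.5 CPM was still under that of the comparator, and 2.62 from these to newborn neurons.

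*Scn2a*, which encodes the main sodium channel of early axon initial segments, followed later. It was at 15.1, 23.3, 16.6 and 26.1 CPM in radial-glia-like nuclei, at 15.9, 23.0, 15.4 and 25.5 CPM in intermediate-progenitor-like nuclei and at 52.0, 63.6, 65.7 and 51.6 CPM in newborn neurons. It then reached 148, 203, 161 and 179 CPM in upper-layer-like and 262, 288, 257 and 343 CPM in deep-layer-like neurons. The values of these 3 neuronal classes did not overlap. Its largest step was that from newborn to layered neurons (2.12 ± 0.11, adjusted p = 1.1e-11, edgeR), where *Scn3a* and *Scn8a* were not called.

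*Scn2a* was higher in deep- than in upper-layer-like neurons by 0.90 ± 0.11, short of the 2-fold limit, and *Scn1a* differed the other way. *Scn1a* rose from 20.9, 24.8, 18.0 and 27.7 CPM in intermediate-progenitor-like to 79.3, 162, 159 and 111 CPM in newborn nuclei (2.71 ± 0.20, adjusted p = 7.1e-10, edgeR). Its level was 105, 233, 165 and 126 CPM in upper-layer-like but only 19.9, 36.7, 26.2 and 30.0 CPM in deep-layer-like neurons, and the deep-layer range overlapped that of intermediate progenitors. From radial glia to intermediate progenitors it differed by 1.08 ± 0.23 and lost the 2-fold call (0.79) without control 2.

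*Scn8a* was the most even of the 4 main alpha genes. It was at 70.3, 82.5, 88.8 and 74.1 CPM in radial-glia-like nuclei and at 136, 155, 161 and 153 CPM in intermediate progenitors, and it lay between 178 and 226 CPM in all neuronal classes and libraries. As a share of all sodium alpha transcripts, it fell from 58.7 ± 4.69% (SD, n = 4 libraries) in radial-glia-like nuclei to 33.1 ± 3.39% in newborn and 24.9 ± 2.19% in deep-layer-like neurons, while the share of *Scn3a* went from 13.6 ± 3.84% to 36.5 ± 0.682% and 31.3 ± 1.85%. These are shares of transcripts, not corrected for gene length, and were not tested. In radial-glia-like nuclei the means of all 4 main genes were under that of the comparator (78.9 against 93.5 CPM for *Scn8a*), which limits the shares there.

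**Figure D2:**
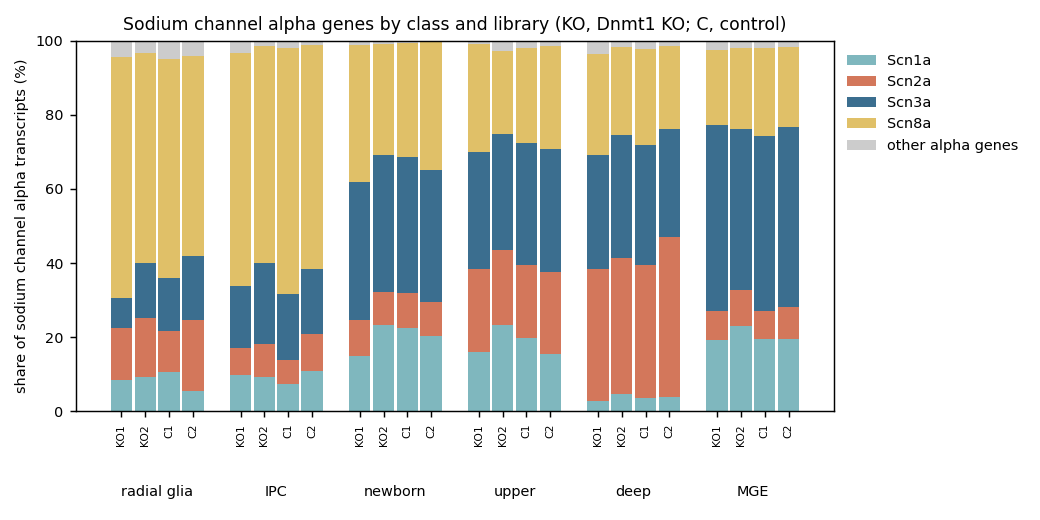
Share of sodium channel alpha transcripts (y axis, percent) contributed by each alpha gene, for each library (KO, *Dnmt1* KO; C, control) in the 6 marker-gated classes. *Scn8a* holds the largest share in both progenitor classes, *Scn2a* reaches 35.7% to 43.3% in deep-layer-like neurons, and *Scn3a* reaches 43.4% to 50.1% in MGE-like nuclei.

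The other 6 sodium alpha genes were scarce. *Scn9a* rose into layered neurons (4.04 ± 0.43 over radial glia) but only to a mean of 15.9 CPM in deep-layer-like neurons, and it shares 68.3 kb with an antisense transcript, *Gm13629*, from which it may not be separable because strand-specific counting is not stated. *Scn11a*, a sensory-neuron channel, was lower in neurons than in radial glia (-1.92 ± 0.44), on 49 transcripts in all radial-glia-like nuclei. *Scn4a*, *Scn7a* and *Scn10a* stayed at or under 0.463 CPM in each library of the 6 classes and were not tested.

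Of the sodium channel beta subunits, which modulate gating and act as adhesion molecules, *Scn3b* had the largest difference. It rose from 2.55, 8.68, 5.41 and 5.03 CPM in radial-glia-like nuclei to 33.9, 38.5, 29.7 and 31.2 CPM in newborn and 68.01, 74.6, 62.8 and 79.7 CPM in deep-layer-like neurons. The 3 classes did not overlap, and the difference from radial glia to layered neurons was 4.08 ± 0.18 (adjusted p = 2.2e-14, edgeR). *Scn2b* was also called higher (2.87 ± 0.22) but reached 6.18 CPM at most in the 6 classes, and *Scn4b* was not tested.

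All 8 calcium channel alpha-1 genes that were tested were higher in neurons than in radial glia, with a median difference of 3.55. The N-type gene *Cacna1b* was at 12.6, 27.6, 22.6 and 30.0 CPM in radial-glia-like nuclei, at 20.1, 41.7, 31.9 and 46.8 CPM in intermediate progenitors and at 130, 141, 112 and 127 CPM in newborn neurons, and it reached 216, 334, 295 and 318 CPM in upper-layer-like and 276, 283, 263 and 294 CPM in deep-layer-like neurons. The neuronal values lay apart from the progenitor values (4.17 ± 0.18, adjusted p = 2.1e-14, edgeR). It was called at both neuronal steps, with 2.18 from intermediate progenitors to newborn neurons and 1.35 from these to layered neurons.

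The level of the L-type gene *Cacna1c* was 323, 275, 270 and 308 CPM in radial-glia-like and 326, 274, 270 and 276 CPM in intermediate-progenitor-like nuclei, near the 275 CPM of the endothelial- and microglia-like comparator, and 1220, 1040, 893 and 1031 CPM in newborn neurons. It changed in a single called step (2.16 ± 0.07, adjusted p = 1.7e-13, edgeR), and layered neurons were at 1375 to 1674 CPM. It kept 53.1% to 60.8% of alpha-1 transcripts in newborn and upper-layer-like neurons. *Cacna1d*, the other brain L-type gene, had called differences of 1.30 from radial glia to intermediate progenitors, both under the 137 CPM of the comparator, and 1.43 from newborn to layered neurons. It was at 44.2, 45.9, 50.3 and 58.9 CPM in radial-glia-like nuclei, 113, 115, 124 and 125 CPM in intermediate progenitors and 525, 513, 554 and 493 CPM in deep-layer-like neurons, without overlap. *Cacna1c* and *Cacna1d* overlap the decapping genes *Dcp1b* and *Dcp1a* on the other strand, at 68.2 and 45.9 CPM in deep-layer-like neurons.

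Among the T-type genes, *Cacna1h* had the largest early step. It was at 11.1, 8.95, 11.9 and 12.8 CPM in radial-glia-like nuclei and at 73.7, 38.8, 49.6 and 47.6 CPM in intermediate progenitors (2.26 ± 0.14, adjusted p = 6.5e-11, edgeR), and between 62.9 and 108 CPM in all later classes. The intermediate-progenitor value of *Dnmt1* KO 1 already lay within the neuronal range. *Cacna1i* had the largest fold over radial glia of all members (4.55 ± 0.29). Its mean was 24.8 CPM in deep-layer-like neurons but 1.08 CPM in radial-glia-like nuclei, under that of the comparator, which limits the fold.

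Of the alpha-2-delta subunits, the binding sites of gabapentin-type drugs among them, *Cacna2d1* and *Cacna2d2* were called higher in the first step. *Cacna2d1* was at 168, 675, 575 and 443 CPM in radial-glia-like nuclei, with *Dnmt1* KO 1 far below the other libraries, and at 1254, 2106, 1849 and 1710 CPM in intermediate progenitors. The classes did not overlap (1.99 ± 0.25, adjusted p = 1.3e-06, edgeR). It continued at 2164, 2254, 2252 and 1815 CPM in newborn and 2541, 2870, 2620 and 2591 CPM in upper-layer-like neurons. *Cacna2d2* was called higher in intermediate progenitors than in radial glia (1.76) and lower again in newborn neurons (-1.79), at means of 3.45, 11.3 and 2.67 CPM. *Cacna2d4* was not tested.

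The beta subunits moved in both directions. *Cacnb2*, a beta subunit best known from heart, was the one of the 3 lower members with a mean above 5 CPM. It was at 570, 446, 465 and 426 CPM in radial-glia-like nuclei, 219, 196, 249 and 188 CPM in intermediate progenitors and 80.7, 78.3, 101 and 56.9 CPM in newborn neurons. The 3 classes did not overlap, and both steps were called (-1.13 and -1.15), as was the difference from radial glia to layered neurons (-1.78 ± 0.11, adjusted p = 5.6e-12, edgeR). *Cacnb4* went the other way, from 142, 123, 119 and 107 CPM in radial-glia-like nuclei to 242, 248, 241 and 212 CPM in newborn and 591, 616, 537 and 648 CPM in deep-layer-like neurons. As a share of all beta transcripts, *Cacnb2* held 76.5 ± 1.01% (SD, n = 4 libraries) in radial glia and 15.4 ± 2.56% in deep-layer-like neurons, and *Cacnb4* held 19.7 ± 0.702% and 76.3 ± 2.39%. *Cacnb1* and *Cacnb3* were called higher in newborn neurons and reached 43.7 CPM at most in the 6 classes.

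**Figure D3:**
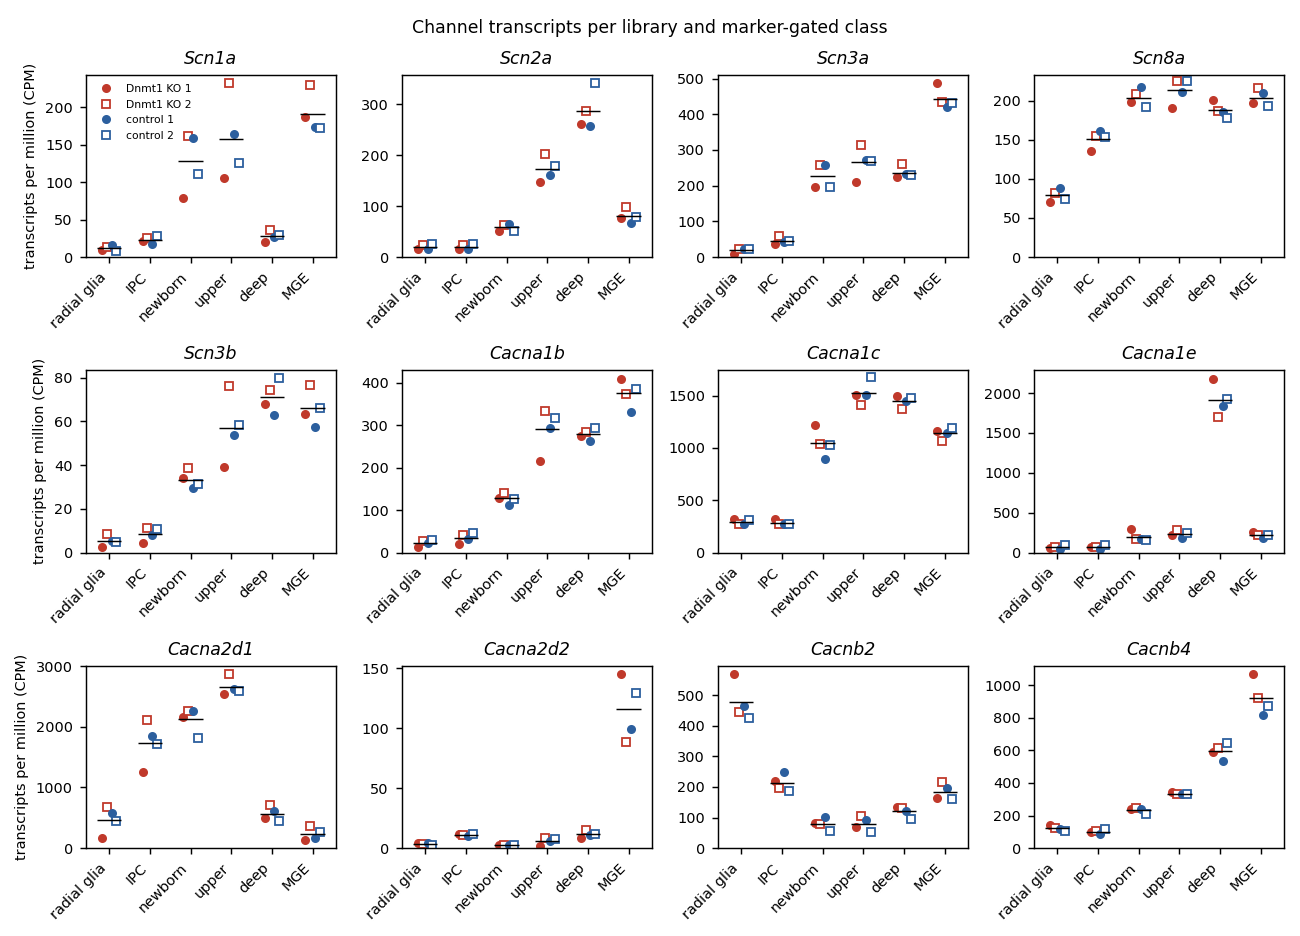
Level (y axis, CPM, linear from 0) of 12 channel genes in each library (red, *Dnmt1* KO; blue, control; filled circles, replicate 1; open squares, replicate 2) across the 6 marker-gated classes, with a line at the mean of 4 libraries (IPC, intermediate-progenitor-like). *Scn3a*, *Cacna1b* and *Scn3b* are higher in the neuronal than in the progenitor classes, and *Cacnb2* falls. *Cacna1e* stands out in deep-layer-like neurons and *Cacna2d2* in MGE-like nuclei, and red and blue points mix within most classes.

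Calls came at each step. From radial glia to intermediate progenitors, 6 of 25 members were higher and 2 lower (1 lower without *Dnmt1* KO 2 and 4 without control 2), beside 6.67% and 12.5% of all genes. From intermediate progenitors to newborn neurons, 14 were higher and 3 lower, beside 9.65% and 10.6% of all genes. From newborn to layered neurons, 12 were higher and 0 lower by edgeR, and 12 and 0 by DESeq2, beside 9.07% and 6.07% of all genes. *Scn1a* (-0.74 ± 0.14) and *Cacna2d1* (-0.62 ± 0.20) passed the adjusted p in the lower direction without a 2-fold difference, and *Scn11a* (-1.18 ± 0.49) passed only before adjustment. Layered neurons are here the mean of both layers. In every library, *Scn1a* and *Cacna2d1* were above newborn neurons in upper-layer-like and below them in deep-layer-like neurons. *Cacna1e*, among those called higher, had means of 0.404, 0.468 and 3.87 CPM per kb of genomic span in newborn, upper- and deep-layer-like neurons. In the longest bin of genomic span, 9.82% of genes were higher and 18.5% lower in the first step, 18.5% and 13.4% in the second, and 18.7% and 9.78% in the third. With library size alone as the scaling, the share of higher calls among all genes fell from 47.6% to 31.2% in the second step and from 59.9% to 46.6% in the third. With that scaling, 12 and 8 members were called higher in these steps.

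The genes that work with the channels, a list of 31 of which 29 were tested, moved in the same fits. From radial glia to layered neurons, 17 were called higher and 2 lower, beside 19.2% and 19.3% of all genes. The largest were *Rimbp2*, which links calcium channels to release sites (4.21), and *Ank3*, the ankyrin that anchors sodium channels at the axon initial segment (3.97). The 2 that fell were *Gem*, a small GTPase that lowers calcium channel surface level (-4.82), and *Cacng5*, a relative of the calcium channel gamma subunits (-3.39). *Cacng5* was higher in intermediate progenitors than in radial glia (1.28) before it fell in newborn neurons (-4.55). In the step to newborn neurons *Gem* fell (-2.49), whereas *Cacng2* (2.64) and the calcium sensor *Cabp1* (2.53) rose. They were among 13 called higher and 2 lower, beside 9.65% and 10.6% of all genes. Earlier, *Stac* (-3.41) and the sodium leak channel gene *Nalcn* (-2.33) were lower in intermediate progenitors than in radial glia. The leak channel partner *Unc79* (1.90) and the sodium channel partner *Fgf11* (1.90) were higher there. They were among 6 called higher and 4 lower, beside 6.67% and 12.5% of all genes. In the step to layered neurons *Stac* (4.64) and *Rimbp2* (3.47) had the largest called rises. *Gem* (-2.52) and *Fgf11* (-1.19) were the 2 of 29 called lower, and 8 were higher, beside 6.07% and 9.07% of all genes. No limit on level was set for partner genes. *Stac* had means of 0.364 CPM in newborn and 9.60 CPM in deep-layer-like neurons. *Gem* had means of 6.21 CPM in radial-glia-like nuclei and 0.162 CPM in deep-layer-like neurons. *Fgf11* had means of 12.3 CPM in newborn and 3.81 CPM in deep-layer-like neurons.

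The next comparison set deep- against upper-layer-like neurons. The paper describes deep-layer neurons as born before those of the superficial layers, so layer and neuron age cannot be told apart here. All classes come from E16.5, and the steps given above are differences between classes, not changes traced in time. Of 25 members, 5 were higher and 3 lower in deep-layer-like neurons, beside 7.51% and 3.68% of all genes, and 16% and 7.19% of those in the longest bin of genomic span, which holds 17 of the 25. The 5 became 3 without *Dnmt1* KO 2 and 2 without control 2. Across all genes, the share of higher calls among calls was 67.1%, or 55.9% when scaled by library size alone. The R-type gene *Cacna1e* differed most. It was at 219, 279, 184 and 242 CPM in upper-layer-like and at 2181, 1703, 1833 and 1926 CPM in deep-layer-like neurons, with no overlap (3.21 ± 0.18, adjusted p = 4.2e-11, edgeR). It made up 39.0% to 42.8% of alpha-1 transcripts in deep-layer-like neurons and 7.06% to 10.5% in upper-layer-like neurons. The T-type gene *Cacna1g* was at 14.3, 25.4, 14.5 and 21.6 CPM in upper-layer-like and 66.9, 56.9, 43.2 and 55.6 CPM in deep-layer-like neurons (1.60 ± 0.19). *Cacna1i* (1.11 ± 0.19) and *Cacna1a* (1.01 ± 0.18) were just past the 2-fold limit, and both fell short of it under several alternatives, at 0.95 and 0.85 with library size alone and 0.98 and 0.87 without control 2.

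In the other direction, *Scn1a* was lower in deep-layer-like neurons by the values given above (-2.29 ± 0.17, adjusted p = 2.9e-09, edgeR), and so was *Cacna2d1*. The latter was at 498, 717, 617 and 441 CPM in deep-layer-like neurons against 2541 to 2870 CPM in upper-layer-like neurons (-2.09 ± 0.25, adjusted p = 1.4e-06, edgeR). *Scn11a*, the third, rests on 43 transcripts in upper- and 8 in deep-layer-like neurons. *Scn2a* (0.90 ± 0.11), *Cacna1d* (0.89 ± 0.08) and *Cacnb4* (1.00 ± 0.09) passed the adjusted p but not the 2-fold limit, and *Scn3a* (0.00 ± 0.15) and *Scn8a* (-0.02 ± 0.07) showed no difference beyond their standard error. Of the 29 partner genes, 6 were higher and 1 lower in deep-layer-like neurons, beside 7.51% and 3.68% of all genes. *Rimbp2* (2.95) and *Nalcn* (2.40) led the higher ones, and the lower one was *Cacng2* (-1.40).

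Interneuron-like nuclei of MGE type were set against the mean of both excitatory classes. There, 18 of 25 members had an unadjusted p under 0.05 (edgeR), beside 7085 of 15330 genes. By the adjusted p and the 2-fold limit, 4 members were higher and 3 lower, beside 6.58% and 7.07% of all genes. Of all calls, 48.2% were higher (57.3% with library size alone). In the longest bin of genomic span, which holds 17 of the 25, 13.2% of genes were higher and 12.6% lower. *Cacna2d2* was at 145, 88.8, 99.2 and 130 CPM in MGE-like nuclei and between 2.18 and 15.3 CPM in both excitatory classes, without overlap (3.59 ± 0.16, adjusted p = 4.0e-13, edgeR). *Cacna2d3* was at 895, 577, 572 and 882 CPM against 179 to 346 CPM (1.45 ± 0.23), and *Cacna2d1* was at 132, 366, 169 and 268 CPM, below both excitatory classes (-2.55 ± 0.24, adjusted p = 3.2e-08, edgeR). The mean of *Cacna2d1* in MGE-like nuclei, 234 CPM, was under the 284 CPM of the endothelial- and microglia-like comparator. Of the alpha-2-delta family, *Cacna2d3* held 55.9% to 76.3% of the transcripts in MGE-like nuclei and *Cacna2d1* 88.3% to 93.3% in upper-layer-like neurons.

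Among sodium channels, *Scn1a*, the gene of Dravet syndrome and a channel of inhibitory neurons in the mature brain, was at 187, 230, 173 and 173 CPM in MGE-like nuclei (1.45 ± 0.14 over the excitatory mean). Its range overlapped that of upper-layer-like neurons and lay above that of deep-layer-like neurons. *Scn2a* was at 76.1, 98.3, 66.5 and 79.1 CPM, below every excitatory value (-1.58 ± 0.11, adjusted p = 2.9e-10, edgeR). *Scn3a* was at 488, 434, 419 and 432 CPM, above every excitatory value, with a difference of 0.73 ± 0.13 that passed the adjusted p (0.00012, edgeR) and not the 2-fold limit. *Cacna1g* was at 110, 88.8, 83.6 and 94.8 CPM (1.39 ± 0.15), and *Cacna1e*, at 258, 216, 182 and 220 CPM, overlapped upper-layer-like neurons but lay far below the deep-layer values (-1.71 ± 0.16). Its mean there, 219 CPM, was under the 741 CPM of the comparator. For this gene the comparator was uneven, as given above, with high values in endothelial-like and low values in microglia-like nuclei, so it sets no background level. *Cacnb4* was at 1071, 922, 814 and 870 CPM, above every excitatory value, at 0.93 ± 0.07. Of the 29 partner genes, 7 were higher and 4 lower, beside 6.58% and 7.07% of all genes. *Cacng3* (6.57) and *Cacng2* (2.00) led the higher ones. *Stac* (-2.18, at a mean of 1.93 CPM in MGE-like nuclei) and *Cabp1* (-1.93) led the lower ones.

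**Figure D4:**
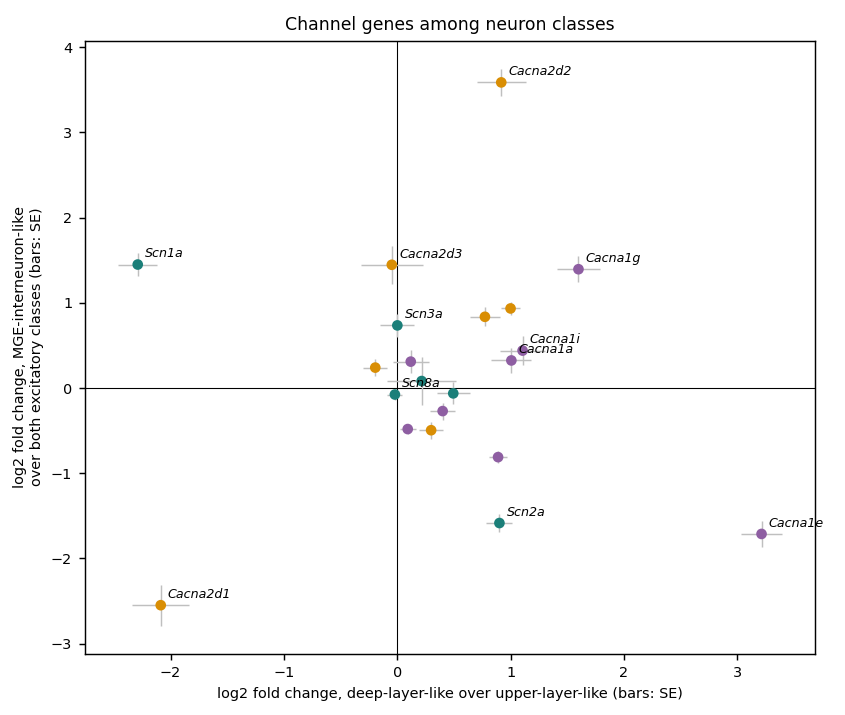
Log2 fold change of deep- over upper-layer-like neurons (x axis) against that of MGE-like nuclei over both excitatory classes (y axis) for channel genes with a mean of at least 10 CPM in a neuronal class, with standard errors as bars (teal, sodium channels; purple, calcium alpha-1; orange, calcium auxiliary subunits). *Cacna1e* lies at 3.21 and -1.71, *Scn1a* at -2.29 and 1.45, *Cacna2d1* at -2.09 and -2.55 and *Cacna2d2* at 0.92 and 3.59. Both axes use the upper- and deep-layer-like sums, so positions on them are not independent.

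Levels of different genes were compared per kilobase of genomic span. Whether introns were counted is not given in the sources used here, and the order below rests on span as the length. On that scale the leading members in deep-layer-like neurons were *Cacna1e* (3.87 ± 0.41 CPM per kb, SD, n = 4 libraries), *Scn3b* (3.01 ± 0.31) and *Cacnb3* (2.92 ± 0.25), and these neighbours did not differ beyond their spread except for *Cacna1e*. In upper-layer-like neurons *Cacna2d1* led (6.03 ± 0.33), and in MGE-like nuclei *Scn3a* (4.01 ± 0.27) and *Cacnb4* (3.70 ± 0.44) led with overlapping spread. At the other end, 10 members stayed under a mean of 5 CPM in all 6 classes, among them *Cacna1f*, *Cacna1s*, *Cacna2d4*, *Scn10a*, *Scn11a*, *Scn4a*, *Scn4b* and *Scn7a*.

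The last comparison, between *Dnmt1* KO and control, asked whether loss of *Dnmt1* from somatostatin-lineage cells went with another channel level in these cells or in their neighbours. No member passed an adjusted p of 0.05 (edgeR quasi-likelihood test, 2 against 2 libraries) over all nuclei, in any of the 6 classes or in nuclei with *Sst* and *Gad2* transcripts, and neither did any partner gene tested. The same held for the whole table, with 0% of 21516 genes called over all nuclei, 0% of 14225 in radial-glia-like, 0% of 12200 in intermediate-progenitor-like, 0% of 13735 in newborn, 0% of 14636 in upper-layer-like, 0% of 15916 in deep-layer-like and 0% of 13010 in MGE-like nuclei and 0% of 7217 in *Sst* and *Gad2* nuclei. In the same order, 1 of 30, 1 of 23, 2 of 21, 5 of 22, 0 of 24, 0 of 24, 3 of 23 and 0 of 21 members had an unadjusted p under 0.05 (edgeR). For partner genes there were 2 of 30, 0 of 28, 2 of 28, 4 of 29, 2 of 28, 2 of 28, 2 of 28 and 0 of 23. Of the genes tested in each population, as numbered above, 1612, 740, 745, 858, 442, 836, 695 and 211 did so. DESeq2 called 1 member in intermediate progenitors, 1 in newborn neurons and none elsewhere, no partner gene, and 0 to 205 genes in all. The labels do not say whether libraries came from separate litters, so the tests measure the spread between these libraries, and control 2 differs from the others in batch. Within batch 1, where control 1 is the lone control and is assumed to vary like the *Dnmt1* KO libraries, no member was called in any of the 8 populations. Without *Dnmt1* KO 2, 4 members of 287 genes in all were called in radial-glia-like, 2 of 288 in intermediate-progenitor-like and 2 of 59 in *Sst* and *Gad2* nuclei, and without *Dnmt1* KO 1, 1 of 34 in intermediate-progenitor-like nuclei. Each of these fits sets a lone *Dnmt1* KO library, assumed to vary like the controls, against 2 controls that alone give the spread. In an exact permutation test, 2 against 2 libraries could not go below p = 0.333.

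Within the MGE-like nuclei, which include most nuclei with *Sst* and *Gad2* transcripts (15 of 16, 121 of 136, 34 of 40 and 22 of 27), 20 of 23 tested members had a difference above 0, with a median of 0.18, beside a median of -0.01 over all genes. In the other populations, the members above 0 were 17 of 21 in *Sst* and *Gad2*, 18 of 22 in newborn, 19 of 24 in deep-layer-like, 14 of 24 in upper-layer-like and 13 of 21 in intermediate-progenitor-like nuclei, but 11 of 23 in radial-glia-like nuclei and 11 of 30 over all nuclei. Differences in MGE-like nuclei were also above 0 for long genes generally, with a median of 0.07 in the longest of 5 bins, which holds 16 of these members, and -0.11 in the shortest. In the other populations the longest bin had medians from 0.0472 (*Sst* and *Gad2* nuclei) to 0.102 (upper-layer-like), and the shortest was below 0 in each. The members were read from the same 4 libraries and are not independent of each other. *Scn1a* stood at 187 and 230 CPM in the mutant libraries against 173 CPM in both controls (0.33 ± 0.12, unadjusted p = 0.029 and adjusted p = 0.86, edgeR). *Scn9a* was at 24.6 and 19.3 against 16.2 and 13.0 CPM (0.63 ± 0.21, adjusted p = 0.86). *Cacnb3* was at 23.7 and 25.1 against 30.1 and 37.3 CPM (-0.40 ± 0.16, adjusted p = 0.86). Their genotypes did not overlap, but this was the rule by which they were named and gives no further support. The differences did not pass the correction.

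In nuclei with *Sst* and *Gad2*, of which there were 16, 136, 40 and 27, the standard errors were larger. *Cacna2d2* stood at 216 and 95.4 CPM in the mutant against 77.6 and 83.8 CPM in the control libraries (0.90 ± 0.41, adjusted p = 1.00, edgeR), and the highest value came from the 16 nuclei of *Dnmt1* KO 1. *Scn1a* was at 165 and 213 against 160 and 127 CPM (0.48 ± 0.24) and *Cacna1a* at 406 and 368 against 313 and 286 CPM (0.42 ± 0.21), with adjusted p of 1.00 for both. *Scn3a* (617 and 418 against 375 and 480 CPM) overlapped between the genotypes.

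Differences between genotypes were also seen outside the interneurons, without passing the correction. In newborn neurons, *Scn9a* had the largest (1.45 ± 0.53, adjusted p = 0.78, edgeR), at 4.16 and 5.53 against 2.85 and 0.88 CPM, but its mean there, 3.35 CPM, was under the 4.47 CPM of the endothelial- and microglia-like comparator. *Cacna1a* stood at 286 and 127 against 115 and 87.4 CPM (1.07 ± 0.38, adjusted p = 0.78, edgeR). In intermediate-progenitor-like nuclei *Cacna1a* stood at 152 and 126 CPM in the mutant against 62.9 and 69.8 CPM in the control libraries (1.14 ± 0.15, unadjusted p = 0.00015, adjusted p = 0.43, edgeR), and it was the member that DESeq2 called there. Its mean in this class, 103 CPM, was under the 112 CPM of the comparator. *Cacna2d3* was at 375 and 201 against 152 and 107 CPM in newborn neurons (1.20 ± 0.32, adjusted p = 0.78, edgeR), where DESeq2 called it, and at 181 and 199 against 115 and 128 CPM in radial-glia-like nuclei (0.69 ± 0.11, adjusted p = 0.82). *Cacna1g* was at 49.7 and 32.4 against 17.9 and 27.1 CPM in newborn neurons (0.91 ± 0.28, adjusted p = 0.78). In each of these cases the genotypes did not overlap, but most of them were named by that rule, so it gives no further support. In newborn neurons *Cacna1i* was at 5.62 and 5.69 against 2.85 and 3.87 CPM (0.78 ± 0.26, adjusted p = 0.78), and the difference turned to -0.24 without nuclei of a hippocampal marker score above 0, an alternative chosen after seeing the data. The mean of *Cacna1i* there, 4.51 CPM, was under the 5.46 CPM of the comparator. *Cacna2d3* was at 109 and 80.0 against 47.6 and 72.6 CPM in intermediate-progenitor-like nuclei (0.72 ± 0.24, adjusted p = 0.80), where *Cacnb3* was at 13.1 and 15.1 against 11.8 and 12.3 CPM (0.29 ± 0.23). These ranges lay close together, and the last difference was near its standard error. The mean of *Cacna2d3* in this class, 77.3 CPM, was under the 107 CPM of the comparator. In radial-glia-like nuclei, *Cacnb4* was at 142 and 123 against 119 and 107 CPM (0.27 ± 0.12) and *Cacna1d* at 44.2 and 45.9 against 50.3 and 58.9 CPM (-0.24 ± 0.13), each with an adjusted p of 0.82 (edgeR). Both directions turned under alternatives, *Cacnb4* to -0.085 without nuclei of a hippocampal marker score above 0 and *Cacna1d* to 0.18 with the range applied to mapped reads and 0.072 with doublets removed.

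Over all nuclei, 3 calcium channel genes had the smallest p among members without overlap. *Cacna1g* was at 59.3 and 54.8 against 35.0 and 46.9 CPM (0.46 ± 0.17, adjusted p = 0.65, edgeR), *Cacna2d3* at 546 and 414 against 386 and 355 CPM (0.35 ± 0.16, but -0.028 without nuclei of a hippocampal marker score above 0) and *Cacna1a* at 339 and 239 against 225 and 213 CPM (0.38 ± 0.18). The lack of overlap was the rule by which they were chosen, and *Dnmt1* KO 1 held the highest value of each gene.

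Nuclei of hippocampal type moved with these genes. There were 414 and 685 hippocampal-like nuclei in the *Dnmt1* KO and 190 and 140 in the control libraries, and the markers of the hippocampal neuron list, of which 4 or 5 of 5 were seen in each library, summed in newborn neurons to 3488 and 3465 CPM for the mutant against 2237 and 2541 CPM for the control libraries. *Cacna1a* and *Cacna2d3* were at means of 471 and 916 CPM in hippocampal-like nuclei, beside 154 and 209 CPM in newborn neurons. Leaving out nuclei of a hippocampal marker score above 0 is a broad filter. It left 2910, 7197, 4961 and 3576 of the 5640, 12064, 7047 and 4905 nuclei, with the largest share lost in *Dnmt1* KO 1. Radial-glia-like nuclei went from 704, 937, 552 and 408 to 215, 502, 300 and 260. Newborn neurons went from 713, 1049, 718 and 589 to 294, 575, 412 and 332. With this filter, the difference of *Cacna1a* in intermediate progenitors was 0.38 and that of *Cacna2d3* in newborn neurons 0.28. Those of *Cacna2d3* in radial-glia-like nuclei (1.14) and *Cacna1g* in newborn neurons (1.22) were larger than before. In this unsorted tissue, a change in level per cell and a change in the mix of cells within a gated class cannot be told apart.

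In upper- and deep-layer-like neurons, no member with a large class difference passed the test between genotypes. In deep-layer-like neurons, *Cacna1e* differed by 0.08 ± 0.16, *Scn2a* by -0.09 ± 0.16 and *Cacna1c* by 0.00 ± 0.12, and in upper-layer-like neurons *Cacna2d1* differed by 0.09 ± 0.18 and *Scn1a* by 0.27 ± 0.40. A p that misses the threshold does not show that the genotypes were alike. Among the members whose libraries did not overlap, *Cacnb2* was at 134 and 130 against 122 and 94.4 CPM in deep-layer-like neurons (0.32 ± 0.14, adjusted p = 0.82, edgeR), and *Cacna1h* at 73.2 and 73.3 against 87.3 and 90.6 CPM in upper-layer-like neurons (-0.24 ± 0.11, adjusted p = 1.00). In upper-layer-like neurons, *Scn2b* was at 2.49 and 3.83 against 4.32 and 4.51 CPM (-0.34 ± 0.30) and *Cacna1c* at 1502 and 1409 against 1509 and 1674 CPM (-0.09 ± 0.16). In deep-layer-like neurons, *Cacna1g* was at 66.9 and 56.9 against 43.2 and 55.6 CPM (0.35 ± 0.16) and *Cacna1a* at 417 and 331 against 324 and 323 CPM (0.24 ± 0.14), with a gap between the genotypes smaller than the spread between the *Dnmt1* KO libraries for both.

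Whether genotype changed the class differences themselves was tested by an interaction. No member passed for neurons against radial glia or for MGE-like against excitatory neurons, and 0% of 15330 genes did for the first and 0% of 15330 for the second (edgeR, adjusted p under 0.05), with 1 and 0 members and 571 and 482 genes at an unadjusted p under 0.05. The interaction was 0.60 ± 0.29 for *Scn3a*, 0.11 ± 0.23 for *Scn2a* and 0.26 ± 0.31 for *Cacna1e* in the first contrast, with an adjusted p of 1 for each.

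**Figure D5:**
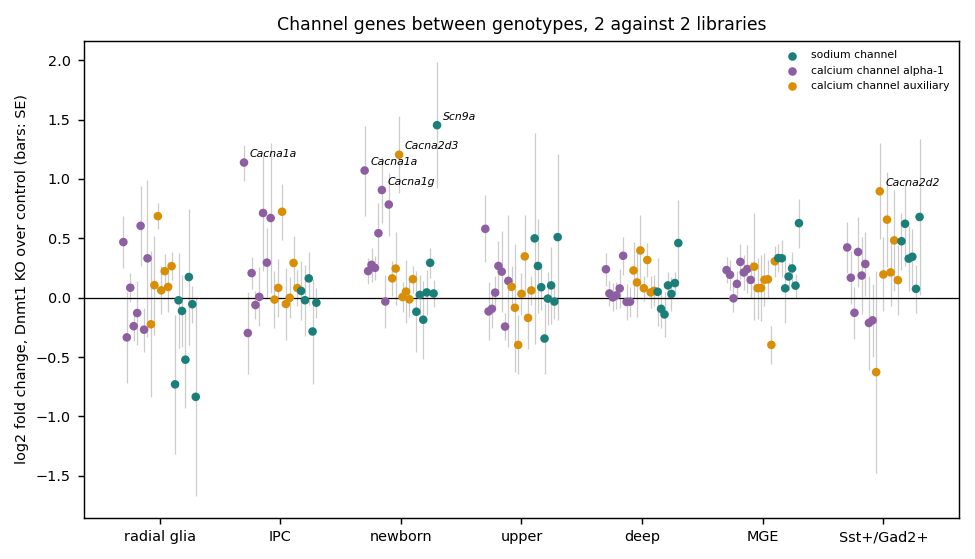
Log2 fold change of the tested channel genes reported here in *Dnmt1* KO over control (y axis, bars for the standard error) in the 6 marker-gated classes (IPC, intermediate-progenitor-like) and in nuclei with transcripts of *Sst* and *Gad2*, with members in alphabetical order within a class and names at a difference of at least 0.85. No point passes an adjusted p of 0.05, and the largest are *Scn9a*, *Cacna2d3* and *Cacna1a* in newborn neurons and *Cacna1a* in intermediate progenitors, of which *Scn9a* and the last had means under the endothelial- and microglia-like comparator.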

How the data were processed

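Nuclei of snap-frozen medial cortex were fixed and barcoded with the Parse Evercode WT kit, and the authors aligned the reads to the mouse genome (GRCm39) in Trailmaker. They deposited unfiltered counts of transcripts per gene and barcode, one matrix per library, and the submitters' processing notes name R 4.4.1 and Seurat 5.0.1.9001. Counting of introns and use of strand are not given in the sources used here. Barcodes with 1500 to 60000 transcripts were retained. Each nucleus was scored on 16 marker lists (log of counts per 10000, z-scored and averaged) and given the top class at a score of at least 0.5 SD, a margin of at least 0.25 SD and at least 3 markers seen. The gate was set after markers and class sizes, but not channel genes, had been looked at, and 2049 of 17400 nuclei in the 6 classes lay within 0.25 SD above the margin. Putative doublets (Scrublet in scanpy 1.11.5, 5.04%) were kept and removed in an alternative.

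Counts were summed per library and class and tested with edgeR 4.0.16 (R 4.3.3; TMM, filterByExpr, quasi-likelihood test, Benjamini-Hochberg adjustment over all genes). Class contrasts used 24 sums with class and library as terms, gate markers left out, and a call needed an adjusted p under 0.05 and a 2-fold difference. Genotype was tested per population with group alone. DESeq2 1.42.0 was an alternative, among 15 in all. Scripts were tested on simulated data and run with Python 3.11.15, numpy 2.4.6, pandas 2.3.3 and matplotlib 3.10.9. Members and lists were chosen with earlier results of these data known. Values per library were given for up to 5 called members each way per class contrast at 20 CPM or more in the higher class, for up to 3 members with the smallest p and no overlap per genotype contrast, and for the 2 largest called partner genes each way. Other members described were chosen after their values were seen. The individual values of 2 members, which stay in the counts and medians, are not reported here. The same replicate number did not pair the libraries (correlation of deviations between -0.0857 and 0.111).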

Additional observations from a re-analysis of the deposited data

Results flagged for a closer look

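*Scn3b* moved in opposite directions in the 2 genotypes when MGE-like nuclei were set against the mean of upper- and deep-layer-like neurons. The difference was 9.82 and 1.22 CPM in *Dnmt1* KO libraries 1 and 2 and -0.724 and -2.58 CPM in control libraries 1 and 2. These values lack the TMM factors, and the TMM-scaled fit gave -0.06 ± 0.13 (log2, SE) across the libraries. Library size alone moved the median of all genes by 0.135 in this contrast, so the sign of small differences depends on the scaling. The interaction of class and genotype was 0.17 ± 0.29 (log2, SE) and did not pass edgeR's quasi-likelihood test (adjusted p = 1). The groups held too few libraries for a test of single outlying libraries.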

How the results depend on the processing

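Of the counts, those of all genes included, 833 kept within 1.5 times of their value or stayed at 0, and 67 moved. Every genotype and interaction count was 0 in the main fits, so the 833 include zeros that stayed 0, which do not show stability. Of the single-gene differences, 796 kept direction and side of the threshold, 15 became weaker, 12 stronger and 5 reversed. The cause of the changes in counts and in single genes was not tested. Without 1 library at a time, channel genes called lower from radial glia to intermediate progenitors ranged from 1 to 4, and those higher in deep- than in upper-layer-like neurons from 2 to 5. Between genotypes, leaving out 1 library gave 0 to 4 channel genes and 0 to 1 partner genes in radial-glia-like, 0 to 2 and 0 to 4 in intermediate-progenitor-like and 0 to 2 channel genes in *Sst* and *Gad2* nuclei. Channel genes called lower from radial glia to intermediate progenitors were 1 with nuclei of a hippocampal score above 0 left out (chosen after seeing the data) and 1 with a gate on thinned nuclei. From newborn to layered neurons, 1 was lower with library size alone (chosen after seeing the data), 1 with doublets removed and 1 without nuclei of a hippocampal score above 0. The 5 channel genes higher in deep-layer-like neurons became 3 with library size alone, 3 without nuclei of a hippocampal score above 0 and 8 with the range applied to mapped reads. With the gate on thinned nuclei, 1 partner gene was lower from newborn to layered neurons and 2 from upper- to deep-layer-like neurons. Without the low-count filter, 1, 2 and 5 channel genes were called between genotypes in radial-glia-like, intermediate-progenitor-like and newborn nuclei, and 2 partner genes each in newborn, upper- and deep-layer-like neurons. Counts of all genes without that filter are given below, without the number tested. The calls under alternatives in this paragraph thus have no share of all genes beside them and are not read as results about the channel genes. DESeq2 called 1 channel gene in intermediate progenitors and 1 in newborn neurons. Genotype differences that reversed were *Cacna2d3* over all nuclei (-0.028), *Cacnb4* in radial-glia-like (-0.085) and *Cacna1i* in newborn nuclei (-0.24) without nuclei of a hippocampal score above 0, and *Cacna1d* in radial-glia-like nuclei with the range applied to mapped reads (0.18) and with doublets removed (0.072).

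Over all genes, 0 were called between genotypes, but without the low-count filter the counts were 70 over all nuclei, 267, 196, 334, 235, 338 and 163 in the 6 classes in their order above and 53 in *Sst* and *Gad2* nuclei, and by DESeq2 205, then 8, 15, 40, 4, 14 and 3, then 0. Leaving out 1 library gave up to 188 over all nuclei, 287 in radial-glia-like, 288 in intermediate-progenitor-like, 35 in deep-layer-like and 59 in *Sst* and *Gad2* nuclei. The interactions gave 20 and 14 without the filter and up to 44 and 21 without 1 library. With library size alone, 4658 genes in place of 2952 were lower in layered neurons than in radial glia, and with the gate on thinned nuclei 594 in place of 931 were lower in layered than in newborn neurons. The replicate block called 0 channel genes in each population, as did the fit without it, and the libraries shared only a number.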

Other observations

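*Scn10a*, a sodium channel gene of sensory neurons, was near 0 in the 6 classes but was counted in lateral-ganglionic-eminence-like nuclei of control 1. There, 160 transcripts came from 24 of 240 nuclei, with 24 in the highest nucleus. *Dnmt1* KO 2 had 3 *Scn10a* transcripts in 2 of 43 such nuclei, whereas *Dnmt1* KO 1 and control 2 had 0 in 7 and 3 nuclei. This class was thus represented mainly by 1 library and was not tested between genotypes.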
